A study of Mus musculus with 8 samples.

Results

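The Kennedy pathway builds phosphatidylcholine from choline and phosphatidylethanolamine from ethanolamine. Choline is carried into the cell, phosphorylated, activated to CDP-choline and joined to diacylglycerol; a parallel branch does the same with ethanolamine. Muscle makes much of its membrane lipid this way, and in mice the loss of choline kinase beta causes a muscular dystrophy. Gpcpd1 enters the same pathway from the side, since its product splits glycerophosphocholine and so returns choline from broken-down phosphatidylcholine. The 10 genes described here are the choline transporter genes Slc44a1 and Slc44a2 and the enzyme genes Chka, Chkb, Pcyt1a, Chpt1, Cept1, Etnk1, Pcyt2 and Selenoi. They were chosen by symbol, with earlier results of these data known. Each matched 1 row among the 54532 genes of the deposited tables, and all 10 passed the low-count filter that left 10691 genes.

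RNA was taken from the quadriceps of chow-fed mice aged 3 months. Knockout mice (4 libraries) were Gpcpd1 Flox/Flox and carried the MckCre transgene, and control mice (4 libraries) were Gpcpd1 Flox/Flox without it. Both groups thus carried the floxed allele, and an effect of Cre itself cannot be told apart from that of losing Gpcpd1. The Mck promoter, that of muscle creatine kinase, is active in muscle fibres, so other cells of the tissue should keep the gene, though this was not tested. Libraries were made by QuantSeq 3′ mRNA sequencing, which reads the 3′ ends of polyadenylated transcripts. Levels of different genes are therefore set side by side as CPM, the reads of a gene relative to the TMM-scaled library size, without dividing by length. This assumes that the counts of each gene are whole.

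The libraries held between 4806806 and 5405999 reads in knockouts and between 4404116 and 5183079 in controls, and the 10 genes together took between 1987 and 2397 reads of a library. Gpcpd1 averaged 35.1 ± 3.45 CPM in knockouts and 149.7 ± 10.7 CPM in controls (SD, n = 4 each; edgeR adjusted p = 2.1e-13), 23.5% of control. Markers of skeletal muscle fibres summed to between 126700 and 133700 CPM in knockouts and between 117400 and 134600 CPM in controls, with the fast myosin gene Myh4 the highest of them. Of 10 marker lists, 9 had summed levels that overlapped between the groups, but some of their genes were called. Of the 8 muscle fibre markers, all tested, 2 were called higher and 1 lower. Macrophage markers summed to 43.3 to 69.3 CPM in knockouts and 59.2 to 99.5 CPM in controls, with 3 of 5 tested genes lower, and fibro-adipogenic markers to 368 to 458 CPM in knockouts and 448 to 555 CPM in controls, with 1 of 5 lower. For comparison, 8.87% of all tested genes were called higher and 6.8% lower. The slow fibre list did not overlap: it summed to 433, 175.5, 155.9 and 165 CPM in knockouts 1 to 4 and to 9.05, 42.97, 28.2 and 37.8 CPM in controls 1 to 4. Knockout 1 was the highest knockout for each of the 6 slow fibre genes. Most of the sum was the myosin light chain gene Myl3, which did not overlap between the groups, nor did the slow troponin gene Tnni1, with 3 to 13 reads in knockouts and 1 or 2 in controls. Myh7, the slow myosin gene, Myl2, Tnnt1 and Tnnc1 overlapped, Myh7 at 0.372 to 3.56 CPM in knockouts and 0 to 3.36 CPM in controls. Without knockout 1 the log2 fold changes were -0.26 for Pcyt1a (edgeR adjusted p = 0.0400), 0.32 for Chpt1 (0.0164), 0.42 for Cept1 (0.016) and 0.19 for Slc44a2 (0.207). The part of fibre type and of other cells in the differences below was not tested. In RNA from whole muscle, fewer cells of a type and less RNA per cell cannot be told apart.

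Among the 10 genes, Pcyt1a fell and Chpt1 and Cept1 rose in knockout muscle, so 3 of 10 were called (edgeR quasi-likelihood F test, threshold of 0.05 on the adjusted p). Over all tested genes 15.7% were called, 8.87% as higher and 6.8% as lower. The median log2 fold change was 0.21 over the 10 genes and 0.01 over all 10691. The called genes stood at 81.7%, 124% and 130% of control. Summed over the 10 genes, the levels of the groups differed by less than 1 SD, at 438.7 ± 8.31 CPM in knockouts and 434.5 ± 12.2 CPM in controls (SD, n = 4 each). Pcyt1a made up 36.7% of that sum in knockouts and 45.4% in controls.

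**Figure D1:**
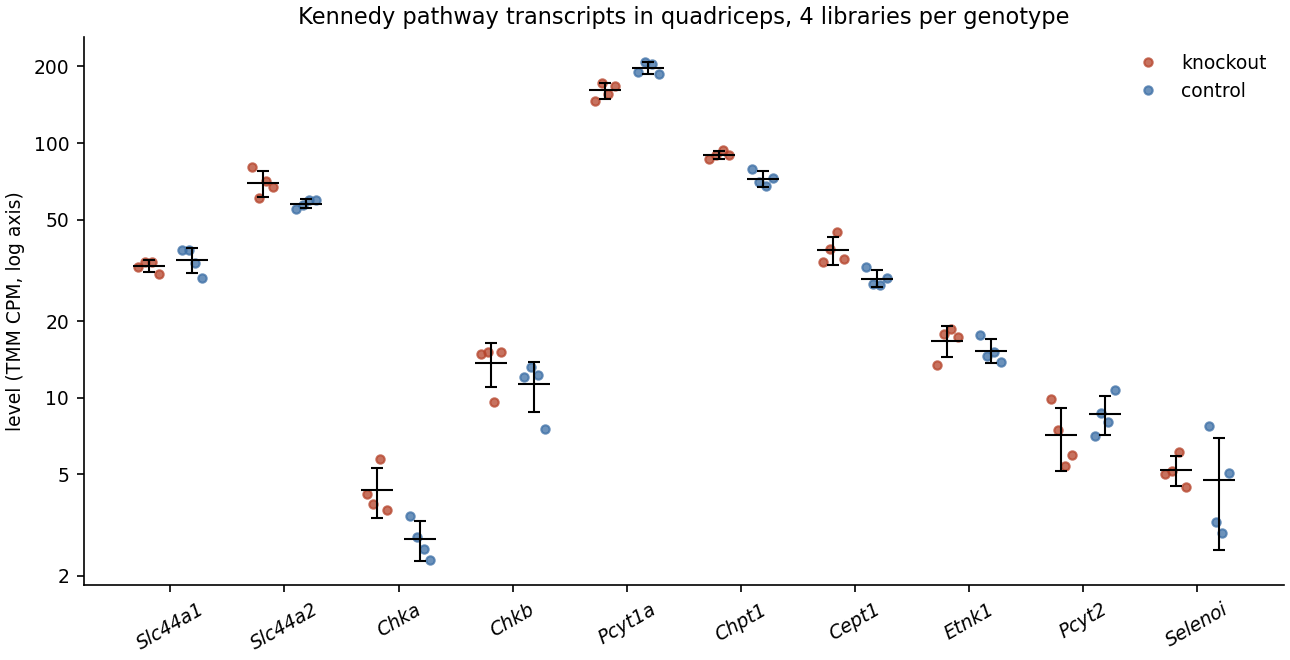
Level of each gene in TMM-scaled CPM on a log axis, with 1 point per library, knockout left of control, a horizontal mark at the mean and bars of 1 SD (n = 4 each). Pcyt1a is the most abundant gene in both genotypes, at 161 CPM in knockouts and 197 CPM in controls, and Chka is the least abundant, at 4.35 CPM in knockouts and 2.79 CPM in controls.

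The order of the levels was set mainly by the gene and little by genotype. In knockouts it ran Pcyt1a, Chpt1, Slc44a2, Cept1, Slc44a1, Etnk1, Chkb, Pcyt2, Selenoi and Chka, and in controls only Cept1 and Slc44a1 changed places. The place of Chkb is that of its counted reads, which may be partial for the reason given with its values below. Counts of other members that share exons with genes on the opposite strand, among them Pcyt1a, Chpt1 and Cept1, may be partial too. The highest mean was 37 times the lowest in knockouts and 70.8 times in controls. The top 3 genes did not overlap with each other in either genotype. In knockouts the ranges of Cept1 and Slc44a1 overlapped, as did each neighbouring pair from Etnk1 down to Chka. In controls the ranges overlapped between Slc44a1 and Cept1, between Chkb and Pcyt2, between Pcyt2 and Selenoi, and between Selenoi and Chka. The genes of the ethanolamine branch (Etnk1, Pcyt2 and Selenoi) were thus all in the lower part, summing to 29.1 ± 1.31 CPM in knockouts and 28.7 ± 3.01 CPM in controls.

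Choline enters through carriers of the SLC44 family. Slc44a1 (GRCm38 chromosome 4, 53440413 to 53622478, plus strand) encodes a choline transporter of the plasma membrane and mitochondria. It measured 32.7, 34.2, 34.2 and 30.5 CPM in knockouts 1 to 4 and 38.1, 37.9, 33.9 and 29.6 CPM in controls 1 to 4. The groups overlapped, and its log2 fold change was -0.08 with a 95% interval of -0.31 to 0.14 (edgeR adjusted p = 0.669). Slc44a2 (chromosome 9, 21320698 to 21355028, plus strand) encodes a related choline transporter-like protein. It measured 80.2, 60.7, 70.8 and 67.0 CPM in knockouts 1 to 4 and 55.1, 57.0, 59.7 and 59.7 CPM in controls 1 to 4. Every knockout library was above every control, with knockout 1, the library highest in slow fibre markers, also the highest here, but the difference did not pass the threshold (log2 fold change 0.27, SE 0.10, edgeR adjusted p = 0.0614). Its adjusted p ran from 0.0335 without knockout 2 to 0.207 without knockout 1. In 5 of the 10 genes the groups did not overlap, against 19.2% of all tested genes.

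Choline kinase catalyses the first step inside the cell. Chka (chromosome 19, 3851773 to 3894369, plus strand), choline kinase alpha, was the lowest of the 10, with 20, 20, 31 and 17 reads in knockouts 1 to 4 and 16, 14, 13 and 11 reads in controls 1 to 4. In CPM these were 4.19, 3.82, 5.76 and 3.63 in knockouts and 3.45, 2.84, 2.55 and 2.31 in controls. The groups did not overlap, though the lowest knockout and the highest control were close. The log2 fold change of Chka was the largest of the 10 and also among the least precise, at 0.65 (SE 0.27, 95% interval 0.10 to 1.20), and it did not pass over all genes (edgeR adjusted p = 0.106).

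Chkb (chromosome 15, 89426360 to 89429908, minus strand) encodes choline kinase beta, the isoform whose loss harms mouse muscle. It measured 14.9, 15.1, 9.66 and 15.2 CPM in knockouts 1 to 4 and 12.1, 13.2, 12.3 and 7.57 CPM in controls 1 to 4. Knockout 3 and control 4 stood low in their groups and the groups overlapped (log2 fold change 0.27, 95% interval -0.11 to 0.65, edgeR adjusted p = 0.360). The log2 fold change was 0.41 without knockout 3 and 0.12 without control 4. Its count may be partial. In GENCODE M21, 50.7% of the exonic bases of Chkb also belong to Gm44502, a gene on the same strand that runs on through Cpt1b, the muscle carnitine palmitoyltransferase gene. Of the last 300 exonic bases of its 2 annotated protein-coding transcripts, 59.7% and 100% are shared with Gm44502. Gm44502 and Cpt1b were both listed at 0 reads in all 8 libraries, and 81.4% of the exonic bases of Cpt1b lie in Gm44502. Cpt1b was chosen for mention after its values were seen. How reads in shared exons were treated is not given in the sources used here, so the level of Chkb may not stand for all of its transcript, and Chka and Chkb should not be ranked against each other from these counts.

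CDP-choline is made by CTP:phosphocholine cytidylyl transferase, the rate-limiting enzyme of the choline branch, whose alpha form is encoded by Pcyt1a (chromosome 16, 32430921 to 32475070, plus strand). Pcyt1a had 701, 905, 843 and 788 reads in knockouts 1 to 4 and 880, 1030, 1042 and 886 reads in controls 1 to 4. Scaled for library size it measured 147, 173, 157 and 168 CPM in knockouts and 189.5, 209, 204 and 186 CPM in controls. All 4 knockouts lay below all 4 controls, a pattern shared by 8.92% of tested genes, and knockout 1, the library highest in slow fibre markers, was the lowest. Pcyt1a averaged 161 ± 11.7 CPM in knockouts and 197 ± 10.9 CPM in controls (SD, n = 4 each). Its log2 fold change was -0.29 (SE 0.08, edgeR adjusted p = 0.0174). Without knockout 3 the fold change was -0.28 and the adjusted p = 0.0553, the highest of 18 alternatives, of which the lowest was 0.0040. The beta form, Pcyt1b, had 4 reads in the knockouts and 1 in the controls, summed over libraries, and was too low to test.

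The last step joins CDP-choline or CDP-ethanolamine to diacylglycerol. Chpt1 (chromosome 10, 88452745 to 88504073, minus strand) encodes the choline-specific phosphotransferase. It had 413, 469, 504 and 420 reads in knockouts 1 to 4 and 367, 346, 345 and 348 reads in controls 1 to 4. As levels these were 86.5, 89.6, 93.6 and 89.6 CPM in knockouts and 79.0, 70.1, 67.6 and 73.1 CPM in controls, so that every knockout was above every control, as in 10.3% of tested genes. Knockout 1, the library highest in slow fibre markers, was the lowest knockout for Chpt1 and so the nearest to the controls. Chpt1 averaged 89.8 ± 2.92 CPM in knockouts and 72.5 ± 4.95 CPM in controls (SD, n = 4 each). Its log2 fold change was 0.31 (SE 0.09, edgeR adjusted p = 0.0139).

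Cept1 (chromosome 3, 106502260 to 106547802, minus strand) encodes an enzyme that accepts either CDP-alcohol. It measured 34.2, 38.4, 44.6 and 35.0 CPM in knockouts 1 to 4 and 32.5, 28.0, 27.6 and 29.4 CPM in controls 1 to 4. Again the groups did not overlap, knockout 3 was the highest and control 1 came close to knockout 1, the lowest knockout. Cept1 averaged 38.0 ± 4.75 CPM in knockouts and 29.4 ± 2.24 CPM in controls (SD, n = 4 each), which gave a difference of 0.38 on the log2 scale (SE 0.11, edgeR adjusted p = 0.0232). Its call was lost in 6 of 18 alternatives, among them DESeq2 (adjusted p = 0.0567) and library totals in place of TMM scaling (0.0591), and the adjusted p ran from 0.016 to 0.123 over all 18.

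**Figure D2:**
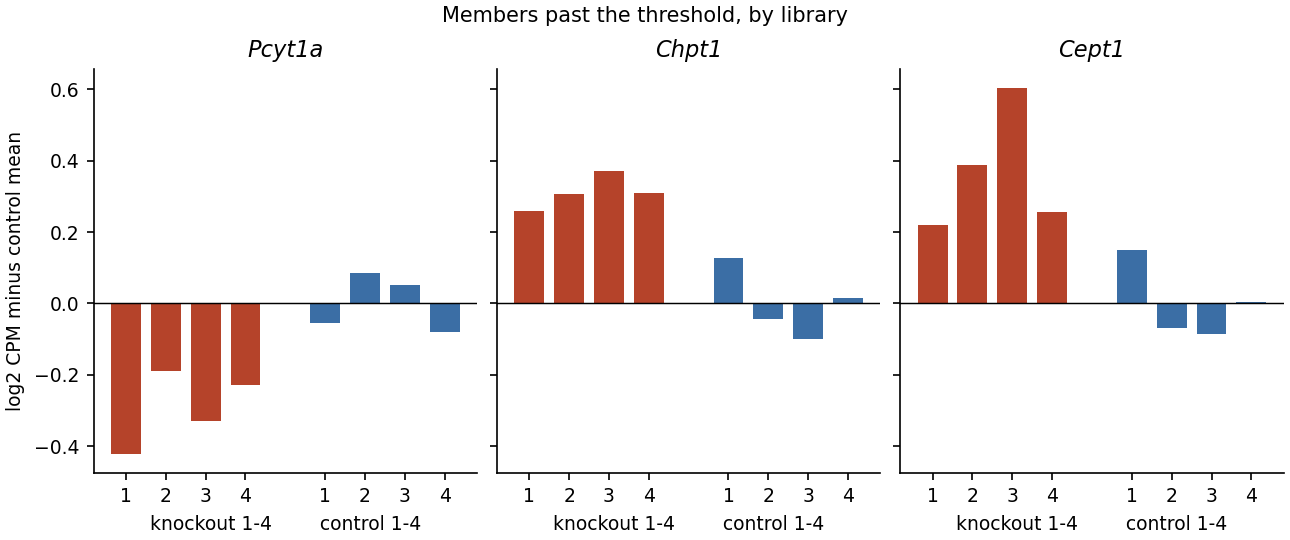
Log2 CPM of Pcyt1a, Chpt1 and Cept1 in each library minus the mean of the 4 controls, with knockouts 1 to 4 left of controls 1 to 4. Pcyt1a is below 0 in all 4 knockouts, while Chpt1 and Cept1 are above every control in all 4.

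The calls rested in part on single libraries. Without knockout 3, edgeR called 0 of the 10 genes, with 5 of them at an unadjusted p under 0.05, and DESeq2 and limma voom without that library, added after the data were seen, also called 0, with 2 and 5 at that unadjusted p. Chpt1 then had a log2 fold change of 0.29 (edgeR adjusted p = 0.0503; range 0.0116 to 0.0767 over its alternatives) and Cept1 of 0.29 (adjusted p = 0.123). Without control 3, edgeR called Pcyt1a alone, with adjusted p = 0.0767 for Chpt1 and 0.0876 for Cept1. Calls over all genes were fewer too, at 1375 of 10765 without knockout 3 and 1334 of 10794 without control 3. With all 8 libraries they were 1675 of 10691. How far the smaller number of libraries alone accounts for the lost calls was not tested. The direction of the 3 genes was the same in each of the 18 alternatives.

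**Figure D3:**
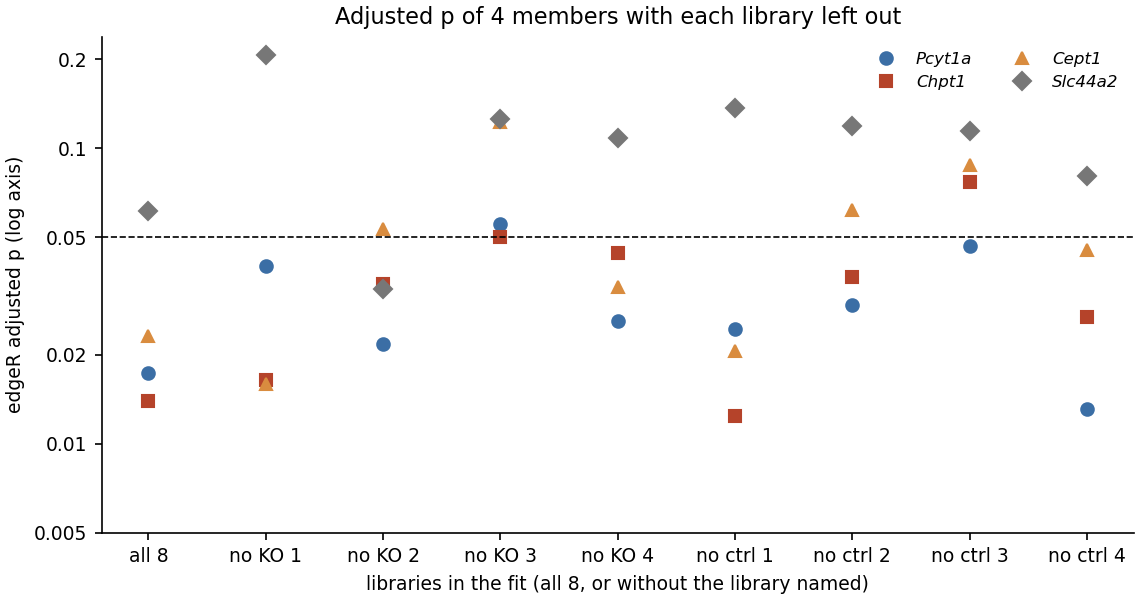
edgeR adjusted p on a log axis for Pcyt1a, Chpt1, Cept1 and Slc44a2 with all 8 libraries and with each library left out; the dashed line is the threshold of 0.05. Leaving out knockout 3 puts the 3 called genes above the line, at 0.0553, 0.0503 and 0.123, and leaving out knockout 2 puts Slc44a2 below it, at 0.0335.

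Chpt1 and Cept1 moved alike across libraries. On log2 CPM relative to the control mean, they differed by a root mean square of 0.09 over the 8 libraries. This made Chpt1 the 9th closest of 10015 protein-coding genes to Cept1 and Cept1 the 37th closest to Chpt1. The measure includes the difference between the groups. Both genes were taken because they were called higher, so close ranks were in part set by that choice. The ratio of Chpt1 to Cept1 reads (log2, 0.5 added to each count) averaged 1.25 ± 0.13 in knockouts and 1.30 ± 0.02 in controls, and the groups overlapped. By the same measure the 3 genes most like Chpt1 were the proteasome gene Psmc2, the glycolytic gene Tpi1 and the mitochondrial import gene Timm17a, with log2 fold changes of 0.28, 0.32 and 0.35. Those most like Cept1 were Tmem63b, Adgre5 and Cdkn2aipnl, at 0.39, 0.41 and 0.39, and those most like Pcyt1a were the cytochrome oxidase assembly gene Cox14, Fundc2 and 5031439G07Rik, at -0.27, -0.30 and -0.27. These genes were picked for their likeness, so their values describe the choice.

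Pcyt1a moved apart from both. The log2 ratio of Chpt1 to Pcyt1a reads was -0.76, -0.95, -0.74 and -0.91 in knockouts 1 to 4 and -1.26, -1.57, -1.59 and -1.35 in controls 1 to 4. This ratio needs no scaling between libraries, and every knockout was above every control. For Cept1 to Pcyt1a the ratio averaged -2.09 ± 0.19 in knockouts and -2.74 ± 0.17 in controls (SD, n = 4 each), again without overlap. Both ratios were chosen after the values of the 3 genes were seen and carry no test. Every knockout was above every control for Chpt1 and Cept1 and below every control for Pcyt1a. The lack of overlap in the ratios follows from this and adds no support.

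The promoters of the 3 called genes are shown because Chpt1 and Cept1 moved together and Pcyt1a moved the other way. Each runs from 250 bases before to 50 bases after the RefSeq start nearest to the annotated start of the gene (GRCm38.p6), 5′ to 3′ on the strand of the gene, with capitals for matches on either strand to the GC box GGGCGG, the CCAAT box CCAAT, the E-box CACGTG and the TATA box TATAAA.
Pcyt1a (chr16:32430671-32430970, plus strand): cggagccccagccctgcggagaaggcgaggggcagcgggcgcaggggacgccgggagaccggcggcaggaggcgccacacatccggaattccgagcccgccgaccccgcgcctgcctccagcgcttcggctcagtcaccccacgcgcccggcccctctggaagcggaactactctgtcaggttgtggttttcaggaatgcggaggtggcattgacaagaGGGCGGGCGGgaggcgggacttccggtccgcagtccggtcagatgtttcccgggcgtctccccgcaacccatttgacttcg
Chpt1 (chr10:88503921-88504220, minus strand): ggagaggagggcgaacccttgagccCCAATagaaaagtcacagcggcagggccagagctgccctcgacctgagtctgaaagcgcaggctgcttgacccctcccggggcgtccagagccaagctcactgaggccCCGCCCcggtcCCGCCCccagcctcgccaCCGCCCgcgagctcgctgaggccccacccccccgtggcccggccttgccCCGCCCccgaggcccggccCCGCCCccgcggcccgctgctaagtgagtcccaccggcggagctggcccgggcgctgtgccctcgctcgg
Cept1 (chr3:106547753-106548052, minus strand): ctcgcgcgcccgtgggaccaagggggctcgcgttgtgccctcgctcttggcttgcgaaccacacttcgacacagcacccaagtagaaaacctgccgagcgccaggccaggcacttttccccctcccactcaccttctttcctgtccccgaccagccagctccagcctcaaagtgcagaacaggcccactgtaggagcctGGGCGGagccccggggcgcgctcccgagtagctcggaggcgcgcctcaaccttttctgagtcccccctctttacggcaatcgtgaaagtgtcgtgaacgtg

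Chpt1 held 5 GC boxes and 1 CCAAT box, Cept1 held 1 GC box, and Pcyt1a held 2 GC boxes that overlap each other. None of these 3 windows held the E-box or the TATA box. Of all 32851 promoters of this length in the RefSeq table, 35.7% held the GC box, 37.4% the CCAAT box, 7.15% the E-box and 13.6% the TATA box. The GC content was 75.3% for Chpt1, 64% for Cept1 and 69.7% for Pcyt1a, with a median of 52.7% over all. All 6 uncalled members with a promoter in the table also held the GC box, so it does not set the called genes apart. The matches are letters in a window and describe the sequence alone.

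The ethanolamine branch begins with Etnk1 (chromosome 6, 143167221 to 143232307, plus strand), ethanolamine kinase. It measured 13.4, 17.8, 18.6 and 17.3 CPM in knockouts 1 to 4 and 17.7, 14.6, 15.1 and 13.9 CPM in controls 1 to 4. The groups overlapped across nearly their whole range (log2 fold change 0.14, 95% interval -0.16 to 0.43, edgeR adjusted p = 0.589). Pcyt2 (chromosome 11, 120610087 to 120617936, minus strand) encodes CTP:phosphoethanolamine cytidylyl transferase, the rate-limiting enzyme of this branch. It measured 9.85, 7.45, 5.39 and 5.97 CPM in knockouts 1 to 4 and 7.11, 8.72, 8.03 and 10.7 CPM in controls 1 to 4. At 28 to 51 reads a library its log2 fold change was -0.28 with a 95% interval of -0.70 to 0.15 (edgeR adjusted p = 0.420). The value was -0.47 without knockout 1, -0.16 without knockout 3 and -0.16 without control 4.

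Selenoi (chromosome 5, 30232581 to 30272427, plus strand) encodes the ethanolamine-specific phosphotransferase, a selenoprotein. It measured 5.03, 5.16, 6.13 and 4.48 CPM in knockouts 1 to 4 and 7.75, 3.24, 2.94 and 5.04 CPM in controls 1 to 4, with all knockouts inside the range of the controls. Its log2 fold change was 0.15 with a 95% interval of -0.41 to 0.71 (edgeR adjusted p = 0.771), and its sign turned without control 2 (-0.0055) or control 3 (-0.040). The intervals of Pcyt2 and Selenoi hold the fold changes of Pcyt1a and Chpt1, their counterparts in the choline branch, and a difference between the branches was not tested. The log2 ratio of Pcyt1a to Pcyt2 reads averaged 4.51 ± 0.44 in knockouts and 4.51 ± 0.28 in controls. The ratio of Chpt1 to Selenoi averaged 4.09 ± 0.15 in knockouts and 4.01 ± 0.53 in controls (SD, n = 4 each).

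**Figure D4:**
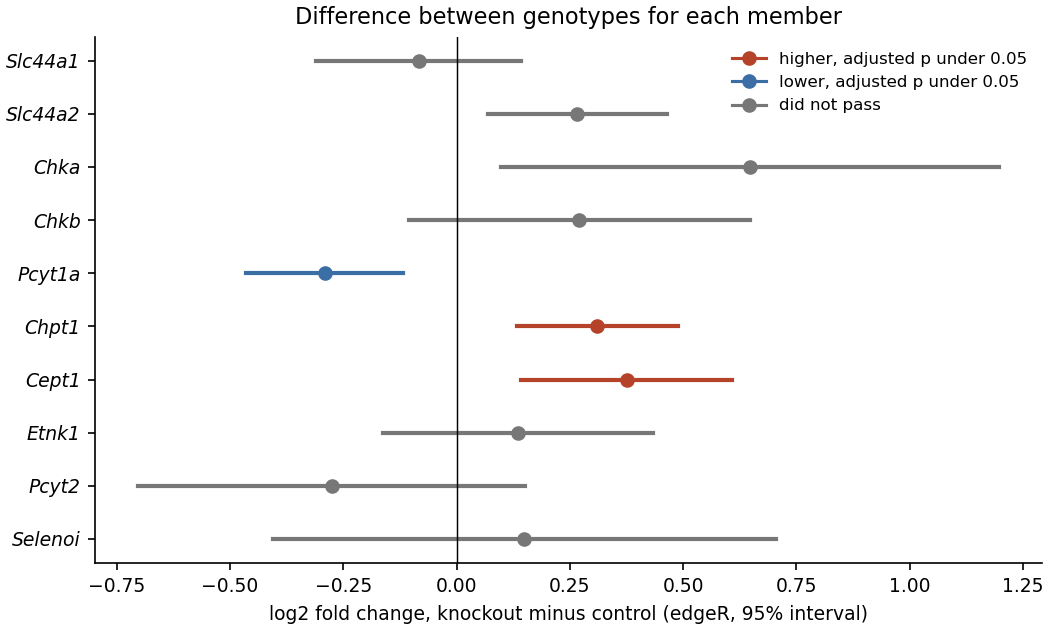
edgeR log2 fold change, knockout minus control, of each gene with its 95% interval (n = 4 each). The interval lies below 0 for Pcyt1a and above 0 for Slc44a2, Chka, Chpt1 and Cept1, and it is widest for Selenoi and Chka, the genes with the fewest reads.

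By step, the transferase genes of the last step (Chpt1, Cept1 and Selenoi) summed to 133 ± 8.13 CPM in knockouts and 107 ± 9.36 CPM in controls (SD, n = 4 each), without overlap. The cytidylyl transferase genes (Pcyt1a and Pcyt2) summed to 168 ± 10.8 CPM in knockouts and 206 ± 10.6 CPM in controls, also without overlap. Both sums mainly repeat the called genes. Pcyt1a alone averaged 161 CPM in knockouts and 197 CPM in controls. Of the last step, the uncalled Selenoi averaged only 5.20 CPM in knockouts and 4.74 CPM in controls. The transporter genes summed to 94.9 to 113 CPM in knockouts and 89.3 to 94.9 CPM in controls, and the ranges all but touched. The choline kinase genes summed to 18.0 ± 1.75 CPM in knockouts and 14.1 ± 2.83 CPM in controls, and their ranges overlapped. Because the count of Chkb may be partial, this sum and the ratio of Chka to Chkb may be off. Of the other ratios within a library, Etnk1 to Chka was lower in every knockout, at 1.93 ± 0.31 on the log2 scale in knockouts and 2.42 ± 0.12 in controls, while Slc44a1 to Slc44a2 and Chka to Chkb overlapped.

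Several members share exons with genes on the opposite strand, and the strand setting of the counting is not given in the sources used here. For 1 protein-coding transcript each of Pcyt1a, Chpt1 and Cept1, the last 300 exonic bases lie wholly opposite exons of Slc51a, Sycp3 and Dennd2d. Those partners had 0 to 2, 0 and 0 to 3 reads a library. How reads in these stretches were treated is not given either. The low counts of the partners thus do not show that those of Pcyt1a, Chpt1 and Cept1 are whole. The start of Cept1 shares 5 bases with Dram2, which had 92 to 154 reads.

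The wider pathway was described by 47 other genes for transport, phosphatidylserine synthesis, diacylglycerol supply, release of choline and use of the products, Gpcpd1 left out. Of these, 26 could be tested, and 2 rose and 2 fell, together a share close to the 15.7% called among all tested genes. The median log2 fold change of the 26 was 0.04. Lpin1, a phosphatidate phosphatase gene that supplies diacylglycerol, fell. It measured 322, 373, 364 and 352 CPM in knockouts 1 to 4 and 480.1, 516, 401 and 476 CPM in controls 1 to 4, without overlap (log2 fold change -0.41, SE 0.09, edgeR adjusted p = 0.0019). Agpat1, an acyltransferase gene that makes phosphatidic acid, the substrate of the enzyme encoded by Lpin1, fell as well. It measured 104.7 to 119.9 CPM in knockouts and 123 to 153 CPM in controls (log2 fold change -0.37, SE 0.09, edgeR adjusted p = 0.0045). Of the 8 tested genes of diacylglycerol supply, the other 6 did not pass, with log2 fold changes from -0.57 to 0.60. The median of the 8 was 0.02.

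Dgat2, whose product turns diacylglycerol into triglyceride, rose. It measured 32.3, 26.9, 27.7 and 28.2 CPM in knockouts 1 to 4 and 17.9, 20.7, 21.1 and 20.8 CPM in controls 1 to 4 (log2 fold change 0.51, SE 0.12, edgeR adjusted p = 0.0037). Pld1, a phospholipase D gene that releases choline from phosphatidylcholine, rose too, with 7.54, 7.64, 7.99 and 5.76 CPM in knockouts 1 to 4 and 2.37, 4.46, 4.31 and 3.57 CPM in controls 1 to 4 (log2 fold change 0.97). The 4 called genes kept their direction and stayed past the threshold in each of the 18 alternatives.

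**Figure D5:**
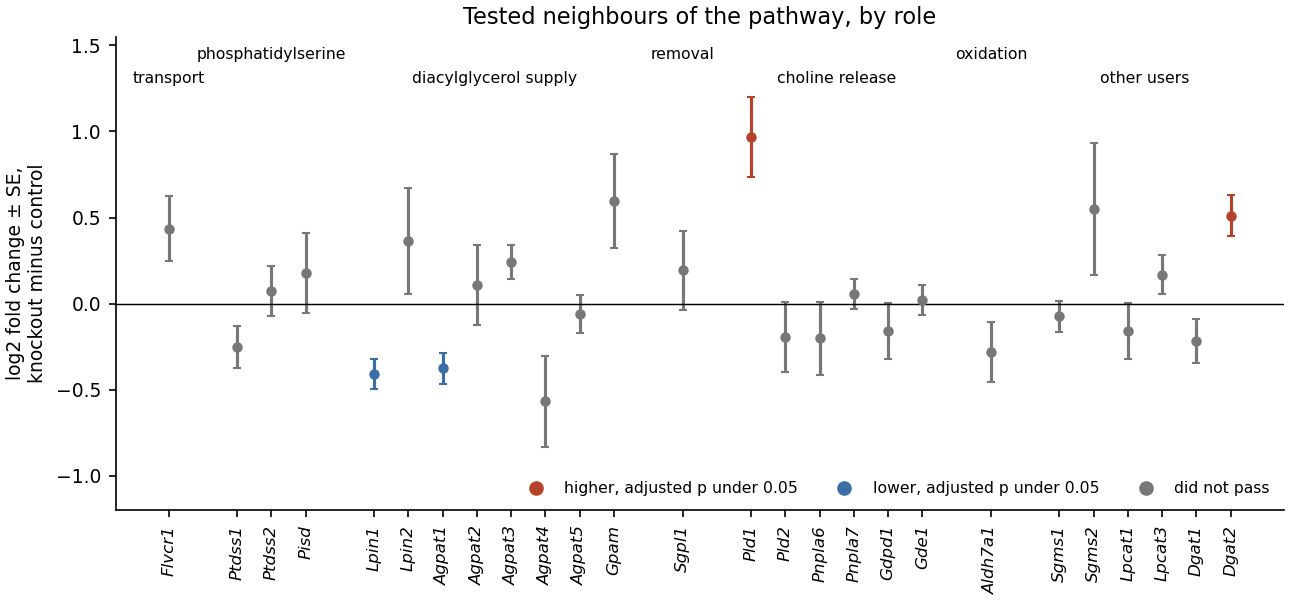
edgeR log2 fold change, knockout minus control, with SE for the 26 tested neighbouring genes, grouped by role. Lpin1 and Agpat1 lie below 0 at -0.41 and -0.37, Dgat2 and Pld1 above it at 0.51 and 0.97, and the other 22 did not pass the threshold.

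Flvcr1, which encodes a choline and ethanolamine carrier, was the only one of 9 further transporter genes with enough reads to test. It averaged 17.9 ± 1.31 CPM in knockouts and 13.3 ± 4.97 CPM in controls (SD, n = 4 each), with control 1 above every knockout (log2 fold change 0.44, SE 0.19, edgeR adjusted p = 0.133). Without control 1 its adjusted p was 0.0069, the lowest of 18 alternatives that reached 0.368, and its log2 fold change 0.70. In the phosphatidylserine route, the lowest p was that of the phosphatidylserine synthase gene Ptdss1 (log2 fold change -0.25, SE 0.12, adjusted p = 0.177). Sgpl1, the sphingosine phosphate lyase gene whose reaction yields phosphoethanolamine, had 0.19 (SE 0.23, adjusted p = 0.631), and Aldh7a1, which encodes an enzyme of choline oxidation, had -0.28 (SE 0.17, adjusted p = 0.311). Pemt, which makes phosphatidylcholine by methylation in liver, had 9 reads in the knockouts and 22 in the controls, summed over libraries, and was too low to test.

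The choline transporter gene Slc44a3, the choline acetyltransferase gene Chat, the acyltransferase gene Lpcat4 and Phospho1, a phosphocholine and phosphoethanolamine phosphatase gene, were listed at 0 in all 8 libraries. They are named because they were at 0, after their values were seen. A count of 0 allows up to 3 reads, or 0.557 to 0.640 CPM in knockouts and 0.587 to 0.646 CPM in controls, which covers counting error only. For Phospho1 this limit says little, because 89.6% of its exonic bases are shared with Zfp652 on the same strand.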

How the data were processed

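Each deposited table holds, per the file headers, unnormalized read counts for Ensembl genes in 1 library. Tools listed in the submitters' processing notes are Subread 1.6.2, featureCounts and Bowtie2 2.3.4.1, and the builds mm10 and GRCm38; annotation and strand setting are not stated there. Genotype labels gave the groups. Replicate numbers follow accession order and pair no libraries, and nothing says that each came from a different mouse, so p-values measure the spread between libraries, which may be technical. Names and positions came from GENCODE M21 (54409 of 54532 genes matched). Chi-square values per degree of freedom of 2.33 or more between libraries of the same genotype showed no duplicates.

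Genes were kept by filterByExpr (minimum count 10, minimum total 15), scaled by TMM and tested in R 4.3.3 with edgeR 4.0.16 (robust quasi-likelihood F test, Benjamini-Hochberg over 10691 genes, threshold 0.05), knockout minus control. SE was taken as the fold change (log2) over the root of F. The procedure was tested on simulated data. Alternatives used DESeq2 1.42.0, limma 3.58.1 (voom), other scalings and filters, and thinning to 4404116 reads. Others used the library number in the titles as a covariate, or left out each library in turn. Knockouts had library numbers 11 to 14 and controls 9, 10, 15 and 16. Both groups had the same mean number, so this covariate could move the fold changes little. Named were the 10 genes, Gpcpd1, called or lowest-p genes of the pathway list, the 3 closest genes to each called member and exon-sharing genes. Members and lists were chosen with earlier results of these data known.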

Additional observations from a re-analysis of the deposited data

Results flagged for a closer look

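In 3 cases a library stood far from the other 3 of its group, by a gap whose share of the group's range passed Dixon's 95% critical value. Chance marks about 5% of groups, and 50 were checked. Chkb was at 9.66 CPM in knockout 3, against 14.9 to 15.2 CPM in the other knockouts. Agpat1 was at 123 CPM in control 4, against 152 to 153 CPM in the other controls. Dgat2 was at 17.9 CPM in control 1, against 20.7 to 21.1 CPM in the other controls.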

How the results depend on the processing

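The number of called members was 3 with all libraries, 2 or 3 under the 10 alternatives that kept all 8 libraries, and 0 to 3 with a library left out: 0 without knockout 3 and 1 without control 3, and also 0 by DESeq2 and by limma voom without knockout 3, which were added after the data were seen. Over all genes 1307 to 1835 were called, from fits of unlike size. The lowest count was 1307 of 10922 genes without knockout 4, and the highest 1835 of 22813 with no low-count filter. With all libraries and the filter it was 1675 of 10691. Of the calls, 56.6% were higher by TMM scaling and 47.9% with library totals. Among 321 values of single named genes under alternatives, 308 kept direction and side of the threshold, 9 lost and 2 gained a call, and the log2 fold change of Selenoi, -0.040 to 0.48 with a library left out, turned sign without control 2 (-0.0055) and without control 3 (-0.040). The pathway count was 5 or 6 and the log2 fold change of Gpcpd1 -2.15 to -2.03. The 6 ratios between members each moved by less than the larger of the knockout and control SDs, but some moved by more than the smaller. Without knockout 3 the difference in Chka to Chkb was 0.033, against 0.33 with all libraries. With a library left out, the difference in Pcyt1a to Pcyt2 ran from -0.14 to 0.21 and that in Chpt1 to Selenoi from -0.14 to 0.24. Counts below about 50 reads a library limit Chka, Pcyt2 and Selenoi. No paired analysis was possible because the labels give no replicate numbers shared by the groups.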
